A study of Homo sapiens with 6 samples.

Results

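Kinesins are motor proteins that bind microtubules, the hollow tubulin filaments of the cytoskeleton, and use ATP to walk along them, to bundle them or to take tubulin off their ends. Mitotic kinesins build the spindle, move chromosomes and organise the midzone, the set of overlapping microtubules that guides the separation of daughter cells, and their mRNAs are made mainly in cells approaching or passing through mitosis. Transport kinesins carry vesicles, mitochondria and endosomes in cells that are not dividing as well, and several are best known from neurons. A smaller group acts in cilia, at centrioles or in signalling.

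The kinesin genes were taken from a count table of the human glioblastoma cell line U251MG by their symbols, as every protein-coding gene named KIF with a number and an optional letter A, B or C, or KIFC with a number. The rule used no measured value and found 42 of the 28395 genes in the table, which were divided by textbook function into 15 mitotic, 17 transport and 10 ciliary and other kinesins. CENPE, a mitotic kinesin whose symbol does not follow the rule, was kept among the partners. The table held 6 bulk RNA-seq libraries, 3 of WT U251 cells and 3 of NUAK2-CR cells, in which the kinase gene NUAK2 was targeted with CRISPR-Cas9. According to the methods, NUAK2-CR lines were clones grown from cells that took up lentiviral vectors with GFP and mCherry and the same guide, and whether the WT cells went through a like step is not given in the sources used here. The labels number the libraries 1 to 3 in each group, name no clone and do not say that the libraries came from separate cultures. A legend of the study names clone CR-3 for its comparison with WT, so the 3 NUAK2-CR libraries may all be of 1 clone, and the p-values measure the spread between these samples, which may be technical. The targeting of NUAK2 and the growing out of a line cannot be told apart in this design.

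Totals ran from 29648445 to 55574081 counts per library, and the 3 NUAK2-CR libraries were shallower than the 3 WT libraries. Values are given as normalized counts, scaled by edgeR's TMM factors to the mean library, and differences as log2 fold changes of NUAK2-CR against WT from edgeR's quasi-likelihood F test, adjusted by Benjamini-Hochberg across the 14873 genes that passed the filter on low counts. A gene was called when its adjusted p was under 0.05. NUAK2 itself fell to 869.5 ± 83.2 normalized counts from 1654 ± 243 in WT (SD, n = 3), with a log2 fold change of -0.93 (standard error, SE, 0.11; adjusted p = 1.8e-05). All 10 glioma and astrocyte markers had counts in some library, with summed levels of 335160 to 370994 normalized counts in WT and 150496 to 157974 in NUAK2-CR. Most of the sum came from CD44, VIM and GFAP. The markers VIM, NES, CD44, S100B, GFAP and SOX2 were called lower, whereas EGFR rose from 3547 ± 322 to 5757 ± 475 (SD, n = 3). SOX9 and ALDH1L1 were not called, and AQP4 had 2 counts in each WT library and 0 in each NUAK2-CR library. Sums for other cell types were small, at 644 to 734 against 201 to 246 for 6 immune markers (AIF1 and CD3E at 0), 43 to 59 against 88 to 108 for 5 endothelial markers, 1138 to 1160 against 2171 to 2207 for 6 neuron markers, 117 to 161 against 38 to 52 for 5 oligodendrocyte markers (MOG, MAG and OLIG2 at 0) and 469 to 531 against 117 to 165 for 5 epithelial markers (KRT20 at 0). Single genes made up most of 3 of these sums. Mean normalized counts in WT and NUAK2-CR were 683 and 226 for the immune marker CD68. They were 126 and 31.6 for the oligodendrocyte marker MBP, and 477 and 129 for the epithelial marker CLDN4.

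Promoter letters were examined first, because many genes expressed late in the cell cycle hold a cell cycle genes homology region (CHR), a short element bound by the MuvB complex together with MYBL2 and FOXM1. The motif was searched as TTTGAA or TTCGAA on both strands, so that TTCAAA is TTTGAA read from the other strand, in RefSeq promoter windows (GRCh38.p14) that run from 250 bases before to 50 bases after each start. It may share an end base with CCAAT, the other motif searched. It was present for 11 of 15 mitotic kinesins (73.3%), 1 of 12 transport kinesins (8.33%, KIF5B) and 1 of 7 ciliary and other kinesins (14.3%, KIF24), 34 of the 42 members having a window. The share was 19.5% over 27305 genes with a window, 15.8% over the 11650 of these that were tested, and 16.4% over all 35116 windows of the same length. CCAAT was present for 11 of 15 mitotic kinesins and 43.2% of tested genes. The mitotic kinesins with no match in these windows were KIF2A, KIF2B, KIF2C and KIF20A. KIF4A and KIF4B, which were both counted as matches, had nearly the same letters around the motif. Stretches upstream of the start are shown for 6 mitotic kinesins whose mRNA levels behaved differently, from KIF18A, which changed most among them, to KIF15, which was not called, and for KIF5B. Capitals mark the match, and each stretch is written 5′ to 3′ on the strand of the gene.
KIF18A (chr11:28108157-28108193, minus strand, match from 10 bases before the start): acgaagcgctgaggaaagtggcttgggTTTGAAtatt
KIF4A (chrX:70290043-70290102, plus strand, 34 bases): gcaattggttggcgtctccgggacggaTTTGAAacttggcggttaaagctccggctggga
KIF23 (chr15:69414267-69414326, plus strand, 55 bases): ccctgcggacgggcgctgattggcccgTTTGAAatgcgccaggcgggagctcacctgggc
KIF22 (chr16:29790697-29790750, plus strand, 27 bases): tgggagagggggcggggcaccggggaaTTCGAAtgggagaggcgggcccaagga
KIF11 (chr10:92593075-92593129, plus strand, 28 bases): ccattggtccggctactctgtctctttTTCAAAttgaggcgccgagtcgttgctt
KIF15 (chr3:44761732-44761791, plus strand, 35 bases): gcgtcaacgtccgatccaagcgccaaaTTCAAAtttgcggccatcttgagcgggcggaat
KIF5B (chr10:32056533-32056592, minus strand, 140 bases): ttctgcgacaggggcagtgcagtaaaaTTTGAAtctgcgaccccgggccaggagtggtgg
These are matches of letters and not measured binding sites.

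Mitotic kinesins as a class were lower in NUAK2-CR. Of 14 tested, 12 fell, 0 rose and 2 were not called, so that 85.7% were called lower against 28.2% of all genes tested. Their median log2 fold change was -0.70, beside -0.01 over all genes. Summed over the class, normalized counts were 92107, 82706 and 80755 in the WT libraries and 49103, 47627 and 46616 in the NUAK2-CR libraries, and the NUAK2-CR mean was 56.1% of the WT mean. With every library thinned to the smallest total, 12 were called again. In bulk RNA, fewer cells near mitosis and less of each mRNA per cell cannot be told apart.

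**Figure D1:**
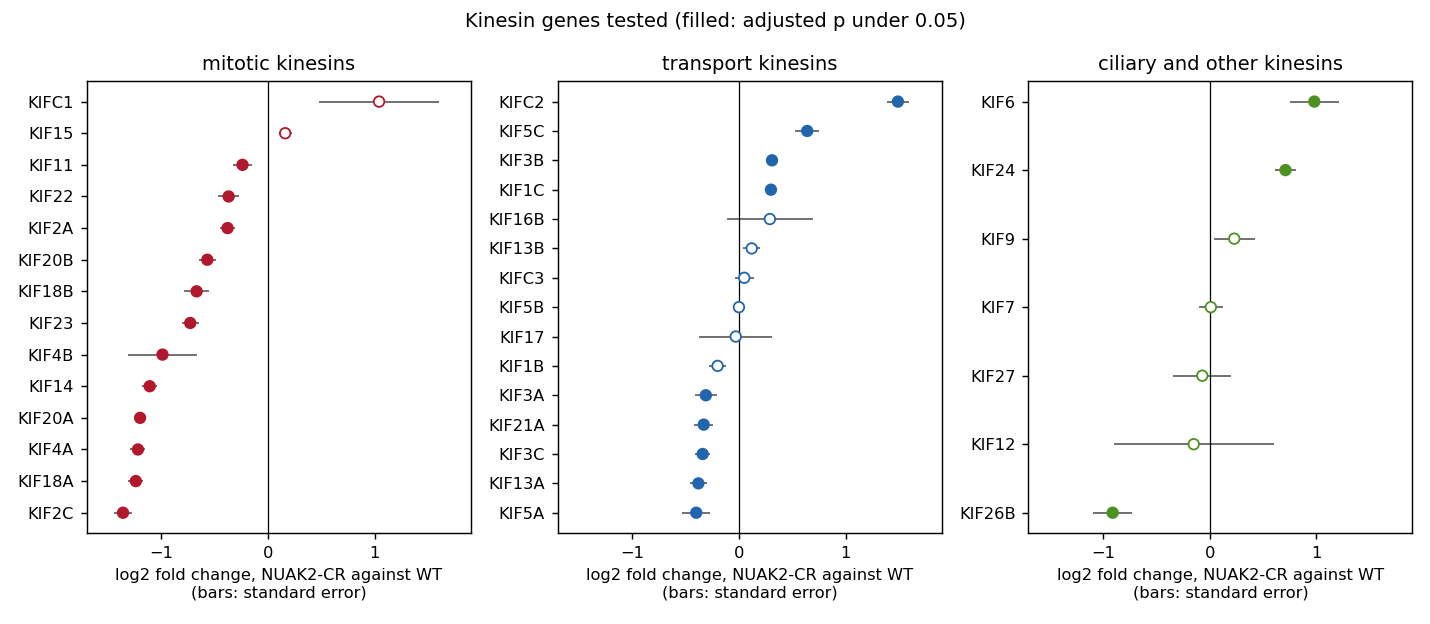
Log2 fold change of NUAK2-CR against WT (horizontal axis) for 36 of the 37 tested kinesin genes in 3 panels by class; bars are SEs, and filled points have an adjusted p under 0.05. Of the mitotic kinesins, 12 lie left of 0 and are filled, whereas the transport kinesins lie on both sides; KIF21B, at 0 counts in NUAK2-CR, is not drawn.

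Over all 42 kinesins, 37 were tested and 25 were called (67.6%, against 54.5% of all genes tested), 19 lower and 6 higher; 26.3% of all genes were called higher. The libraries of the groups did not overlap for 26 kinesins, 19 lower in NUAK2-CR and 7 higher, where the shares over all genes were 61.4%, 31.5% and 29.8%. With a fold change of at least 2 as well, 6 kinesins were called lower (6.96% of all genes) and 1 higher (6.91%). KIF21B alone was called with an absolute log2 fold change over 2, the threshold used in the study, which 4.72% of all genes passed. The 5 members not tested were KIF2B, KIF19 and KIF25, with 0 counts in every library, KIF1A, with 2, 2 and 1 counts in the WT libraries and 0, 6 and 2 in the NUAK2-CR libraries, and KIF26A, with 0 counts in each WT library and 2, 9 and 0 in NUAK2-CR. A count of 0 allows up to 3 counts in a library, which covers counting error only.

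The 3 kinesin-6 motors act at the spindle midzone and in cytokinesis. KIF20A (MKLP2; NCBI gene 10112, chr5:138179112-138187723 in GRCh38), which brings the chromosomal passenger complex to the midzone, had 18286, 17019 and 17157 normalized counts in WT against 7583, 7685 and 7534 in NUAK2-CR. The groups stood far apart, with the NUAK2-CR mean at 43.5% of the WT mean, and KIF20A fell by 1.20 on the log2 scale (SE 0.06, adjusted p = 1.65e-08, edgeR with Benjamini-Hochberg). KIF23 (MKLP1), which forms centralspindlin with RACGAP1, had 13660.2, 12479 and 11523 normalized counts in WT against 8143, 7407 and 7094 in NUAK2-CR. It too did not overlap between groups, and its log2 fold change was -0.73 (SE 0.08, adjusted p = 8.84e-06). KIF20B (MPP1), from 3823 ± 248 (SD, n = 3) to 2573 ± 162 (SD, n = 3), changed by -0.57 (adjusted p = 3.99e-05). KIF20A therefore gave less of the summed level of these motors per transcript length, 57.6% to 59.9% in the WT libraries and 48.0% to 51.1% in the NUAK2-CR libraries, and KIF23 gave more, 35.4% ± 1.26 in WT and 41.9% ± 1.52 in NUAK2-CR (SD, n = 3); these shares were not tested.

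The depolymerases and length regulators of spindle microtubules differed among themselves. KIF2C (MCAK; NCBI gene 11004, chr1:44739837-44767767), the centromeric depolymerase that corrects faulty chromosome attachments, had 12593, 10088 and 10971 normalized counts in WT against 4241, 4559 and 4271 in NUAK2-CR. It was the mitotic kinesin with the lowest log2 fold change, -1.36 (SE 0.08, adjusted p = 6.15e-08), and every NUAK2-CR library was below every WT library. The 100 tested genes nearest to it had a median of -0.44, and KIF2C was 0.93 below even that. KIF18A (chr11:28020619-28108156), a plus-end motor that damps chromosome oscillations, had 3179.7, 3066 and 3021 normalized counts in WT against 1355, 1263 and 1308 in NUAK2-CR. The groups were well separated, and the log2 fold change was -1.24 (SE 0.07, adjusted p = 1.95e-08), with the neighbouring genes at -0.16. KIF18B, which works with KIF2C on astral microtubules, changed by -0.67 (SE 0.12, adjusted p = 0.000377), from 6105 ± 1264 to 3840.3 ± 167 (SD, n = 3). WT replicate 1 had 7562 normalized counts, above the 5434 and 5318 of WT replicates 2 and 3. Without WT replicate 1 the log2 fold change of KIF18B was -0.48 (adjusted p = 2.64e-06, edgeR). Its nearest tested genes had a median of -0.25.

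KIF2A, the kinesin-13 of spindle poles that neurons use as well, moved less, from 3206 ± 110.5 to 2459.7 ± 140 (SD, n = 3), with a log2 fold change of -0.38 (adjusted p = 0.000531). Its nearest tested genes had a median of -0.28. In the annotation 2165 of its transcript bases overlap DIMT1 on the opposite strand. The counting, with default parameters, ignores strand, so reads there match both genes and the level of KIF2A is uncertain. KIF2B, the testis-rich member of this family, had no count.

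KIF4A and KIF14 also fell by more than 2-fold. KIF4A (chrX:70290104-70420886), a chromokinesin that limits midzone length together with PRC1, had 8877, 8835 and 8413 normalized counts in WT against 3774, 3881 and 3536 in NUAK2-CR, for a log2 fold change of -1.22 (SE 0.07, adjusted p = 2.05e-08). KIF14 (chr1:200551497-200620751), which brings citron kinase to the midbody, had 5469, 5621 and 5012 normalized counts in WT against 2532, 2361 and 2566 in NUAK2-CR, for a log2 fold change of -1.11 (SE 0.07, adjusted p = 8.13e-08). Neither gene's groups came near each other. The neighbours of both were lower as well, with medians of -0.34 around KIF4A and -0.43 around KIF14, and less these medians the changes were -0.88 and -0.68. KIF4B, an intronless near-identical copy of KIF4A, had 59.8, 51.1 and 55.9 normalized counts in WT against 17.8, 36.2 and 29.6 in NUAK2-CR (log2 fold change -0.99, adjusted p = 0.0197), but reads of these copies could be assigned to either, so its level is uncertain; the call was lost without WT replicate 1 (adjusted p = 0.0541) and without NUAK2-CR replicate 1 (adjusted p = 0.0824).

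**Figure D2:**
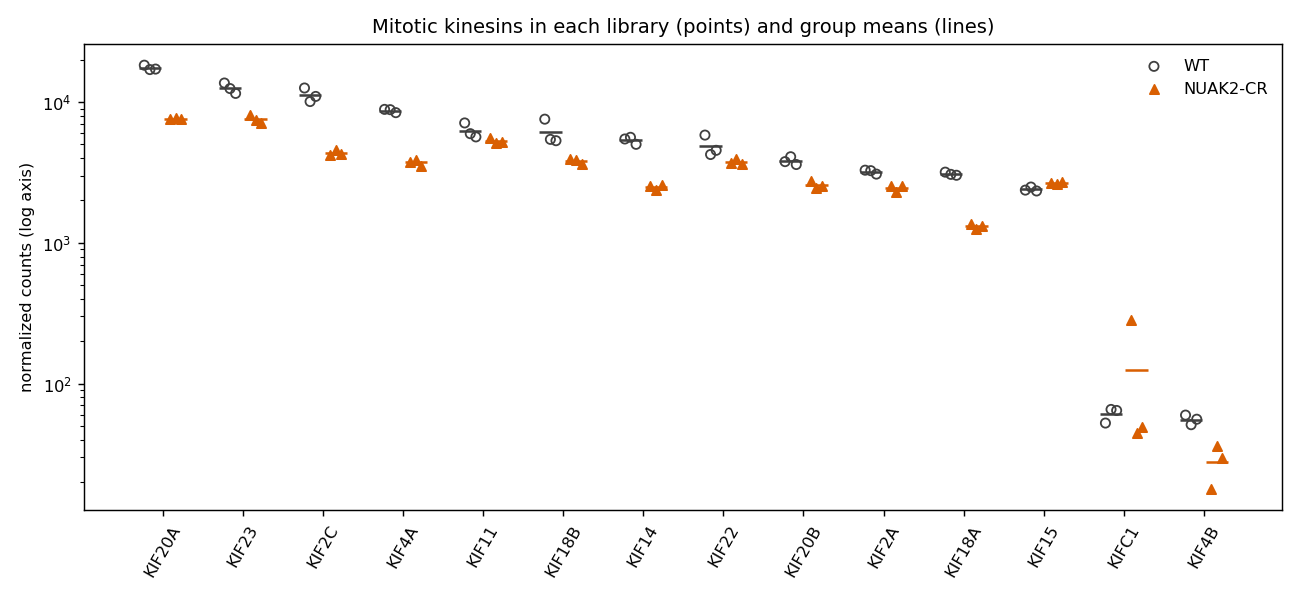
Normalized counts (vertical, log axis) of the 14 tested mitotic kinesins in each library; open circles are the 3 WT libraries, triangles the 3 NUAK2-CR libraries and short lines the group means. KIF20A, KIF2C, KIF4A, KIF14 and KIF18A show wide gaps between groups, KIF11 and KIF15 narrow ones, and 1 of the 3 NUAK2-CR libraries stands apart for KIFC1.

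The motors that hold the spindle poles apart had small differences. KIF11 (Eg5), the tetrameric motor that slides antiparallel microtubules outward, had 7110.1, 5966 and 5658 normalized counts in WT against 5529.9, 5153 and 5184 in NUAK2-CR. The groups did not overlap, but the gap between them was narrow and KIF11 fell by only 0.24 on the log2 scale (SE 0.09, adjusted p = 0.0315). This call did not hold when any NUAK2-CR library or WT replicate 1 was left out, with adjusted p from 0.0576 to 0.109 and log2 fold changes from -0.26 to -0.13; the nearest tested genes had a median of 0.13. KIF15, which keeps spindles bipolar beside KIF11, had 2370.0, 2492 and 2337 normalized counts in WT against 2678, 2635 and 2712 in NUAK2-CR. All NUAK2-CR libraries were above all WT libraries, yet the log2 fold change of 0.16 (SE 0.06) was not called (adjusted p = 0.0577), although it passed with RLE scaling (adjusted p = 0.0484) and without WT replicate 1 (adjusted p = 0.0485); its neighbours had a median of 0.11. KIF22 (Kid), the chromokinesin of chromosome arms, fell by 0.37 (SE 0.10, adjusted p = 0.0089), while the tested genes nearest to it had a median of 0.18; without WT replicate 1 its log2 fold change was -0.22 (adjusted p = 0.00732). Matches to the CHR motif were printed above for KIF11 and KIF15 as well as for KIF18A and KIF4A.

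KIFC1 (HSET; chr6:33391461-33409896), the minus-end motor that focuses spindle poles, could not be measured well. Its counts were 79, 68 and 60 in the WT libraries and 222, 37 and 45 in the NUAK2-CR libraries, or 60.9 ± 7.28 and 125 ± 136 normalized counts (SD, n = 3). A single NUAK2-CR library, replicate 1, lay above all others and the remaining NUAK2-CR libraries lay below WT. The log2 fold change was 1.04 (SE 0.56, adjusted p = 0.139), and -0.35 without NUAK2-CR replicate 1. In settings that keep this library it was called higher without NUAK2-CR replicate 2 (1.44, adjusted p = 0.0422) or replicate 3 (1.42, adjusted p = 0.0464). It was also called without the filter on low counts (adjusted p = 0.0201). Genes close to it were near the floor as well. RPS18, a ribosomal protein gene 119 kb away, had 6 to 21 counts per library, where the median over 80 ribosomal protein genes was 11975. TAPBP and DAXX, 92 and 73 kb away, had 0 to 9 and 1 to 12 counts, and CUTA, 25 kb away, had 1703 counts in WT replicate 1, 557 in NUAK2-CR replicate 1 and 56 to 101 in the others. Farther out, BAK1 at 181 kb had 542 to 1745 counts and LEMD2 at 380 kb had 2283 to 3845. These neighbours were picked after their values were seen, and what lowers the counts of this stretch was not tested. Without KIFC1 and KIF4B, an alternative chosen after seeing the data, 11 mitotic kinesins were called and the median remained -0.70.

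Transport kinesins moved in both directions. Of 16 tested, 6 fell (37.5%, against 28.2% of all genes), 4 rose (25.0%, against 26.3%) and 6 were not called, with a median log2 fold change of -0.01 that also was -0.01 over all genes. Summed normalized counts were 47986, 46798 and 45001 in WT and 49973, 50137 and 48848 in NUAK2-CR, a mean of 107% of WT, so the sum of the class differed far less between groups than that of the mitotic class.

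Among the kinesin-1 heavy chains, which bind light chains and cargo adaptors and carry many organelles, the widely expressed KIF5B had 7338, 7525 and 7032 normalized counts in WT against 7284, 7147 and 7492 in NUAK2-CR. The libraries of the groups were interleaved, and the log2 fold change was 0.00 (SE 0.06, adjusted p = 0.985). Its neuronal paralogs went opposite ways. KIF5C rose from 779.9 ± 127 to 1211 ± 62.9 (SD, n = 3), with a log2 fold change of 0.64 (SE 0.11, adjusted p = 0.000382), and KIF5A fell from 528 ± 44.9 to 400.1 ± 65.3 (log2 fold change -0.40, SE 0.13, adjusted p = 0.0219), a call lost without WT replicate 2 (adjusted p = 0.0758) or NUAK2-CR replicate 3 (adjusted p = 0.103). Per transcript length, KIF5B made up 86.0% ± 1.1 of the heavy chain level in WT and 83.7% ± 1.38 in NUAK2-CR, KIF5C 7.73% ± 1.01 and 11.7% ± 0.705, and KIF5A 6.31% ± 0.278 and 4.65% ± 0.769 (SD, n = 3).

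Heterotrimeric kinesin-2 pairs KIF3A with KIF3B or KIF3C and the adaptor KIFAP3, and drives intraflagellar transport and organelle movement. KIF3A, the subunit common to these motors, had 964, 1222 and 1057 normalized counts in WT against 905, 832 and 875 in NUAK2-CR, with no overlap and a log2 fold change of -0.31 (SE 0.10, adjusted p = 0.0175), a call lost without WT replicate 2 (adjusted p = 0.0729) or NUAK2-CR replicate 2 (adjusted p = 0.0723). KIF3B rose by 0.31 (adjusted p = 0.000949) amid neighbours with a median of 0.25, whereas KIF3C, known from neurons, fell by 0.34 (adjusted p = 0.00115). KIFAP3 fell from 2966 ± 96.0 to 1756 ± 33.6 (SD, n = 3), with a log2 fold change of -0.76 (adjusted p = 1.17e-06), in a stretch of genes with a median of -0.55. Per transcript length, KIF3B made up 55.0% ± 0.733 of the subunit level in WT and 65.7% ± 0.46 in NUAK2-CR, KIF3C 35.2% ± 0.64 and 26.7% ± 0.921, and KIF3A 9.76% ± 1.19 and 7.57% ± 0.501 (SD, n = 3); the shares themselves were not tested. KIF17, the homodimeric kinesin-2 of dendrites and cilia, had 51.3 ± 23.2 and 51.0 ± 5.54 normalized counts (log2 fold change -0.03, adjusted p = 0.947).

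Of 5 tested kinesin-3 carriers, 1 rose, 1 fell and 3 were not called, where 26.3% and 28.2% of all genes rose and fell. KIF1C, which carries dense-core vesicles and integrins, was the most abundant transport kinesin by normalized counts, with 10400.1, 10162 and 10468 in WT against 12595, 13205 and 12533 in NUAK2-CR. Its libraries did not overlap and it rose by 0.30 on the log2 scale (SE 0.06, adjusted p = 0.00122), while the 100 nearest tested genes had a median of -0.34. KIF1B, a carrier of mitochondria and synaptic vesicle precursors, had 5909, 5994 and 4980.1 normalized counts in WT against 5116, 4764 and 4827 in NUAK2-CR. 1 WT library lay within the NUAK2-CR range, and the log2 fold change of -0.20 (SE 0.08) was not called (adjusted p = 0.0513). KIF1B was called without WT replicate 3 (adjusted p = 0.00814) and without the filter on low counts (adjusted p = 0.0319). It was also called with at least 10 counts in every library (adjusted p = 0.0475) and with a replicate block (adjusted p = 0.0474). Its nearest tested genes had a median of -0.31, and less this median its value turned to 0.11. KIF13A, which moves recycling endosomes, fell from 4520.1 ± 485 to 3474 ± 39.7 (SD, n = 3), with a log2 fold change of -0.38 (adjusted p = 0.00151). KIF13B had 1319, 1254 and 1235 normalized counts in WT against 1501, 1341 and 1313 in NUAK2-CR, which overlap narrowly (log2 fold change 0.12, SE 0.08, adjusted p = 0.212). KIF16B, a carrier of early endosomes, was low, at 50.4 ± 5.51 and 62.2 ± 34.4 normalized counts (SD, n = 3; adjusted p = 0.567).

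The kinesins with the largest fitted log2 fold changes in either direction were KIF21B and KIFC2, both known from neurons. KIF21B (NCBI gene 23046, chr1:200969390-201023714), a kinesin-4 that limits microtubule growth, had 140, 110 and 85 counts in the WT libraries and 0 in each NUAK2-CR library. With 3 counts per library as the limit, its level was at least 27.1-fold lower than in WT (adjusted p = 8.37e-07), and its nearest tested genes had a median of -0.43. Its paralog KIF21A stayed expressed and fell by 0.33 (SE 0.09, adjusted p = 0.00866), from 1308 ± 123 to 1041 ± 71.7 (SD, n = 3).

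KIFC2, a C-terminal motor of neurons, had 1019, 908 and 819 normalized counts in WT against 2891, 2442 and 2381 in NUAK2-CR. All NUAK2-CR libraries were more than 2-fold above all WT libraries, and KIFC2 rose by 1.49 on the log2 scale (SE 0.10, adjusted p = 1.26e-07). Its nearest tested genes were higher too, with a median of 0.75, and less this median the value of KIFC2 was 0.74. This subtraction has no test. In the annotation 791 bases of its transcript overlap FOXH1 on the opposite strand, a gene with a mean of 11.2 counts. KIFC3, the related minus-end motor of epithelial vesicles and junctions, had 3513 ± 471 and 3651 ± 142 normalized counts (SD, n = 3; log2 fold change 0.05, SE 0.09, adjusted p = 0.639). Of the 6 neuron markers, SNAP25 rose, from 64.6 ± 10.2 to 754 ± 74.9 normalized counts (SD, n = 3), as did SYT1, from 458 ± 69.6 to 715 ± 52.1. The other 4 were not called: GAD1 had a log2 fold change of 0.19 (adjusted p = 0.279), SYN1 0.71 (adjusted p = 0.0915), SLC17A7 -0.06 (adjusted p = 0.935) and RBFOX3 -0.68 (adjusted p = 0.328). The part of these genes in the values of the neuronal kinesins was not tested.

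**Figure D3:**
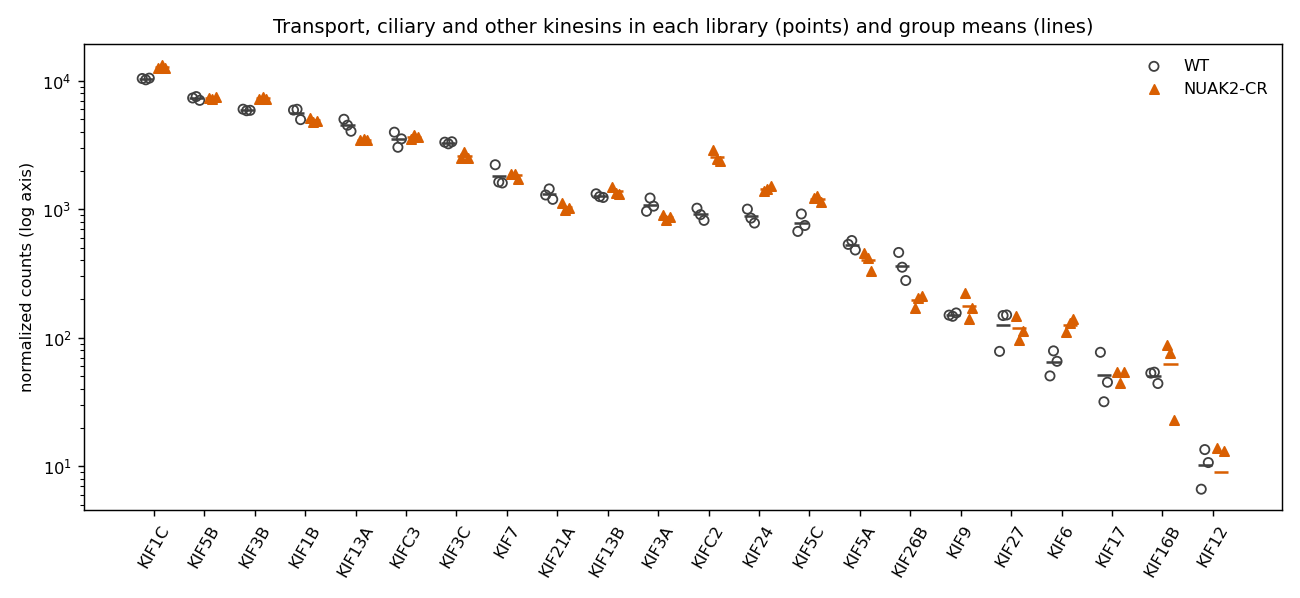
Normalized counts (vertical, log axis) of 22 tested transport, ciliary and other kinesins in each library, with open circles for WT, triangles for NUAK2-CR and short lines for group means. KIFC2 rises in all 3 NUAK2-CR libraries and KIF26B falls, while the libraries of KIF5B are interleaved; KIF21B, at 0 in NUAK2-CR, and the NUAK2-CR library in which KIF12 was 0 have no place on a log axis.

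Ciliary and other kinesins gave 1 lower call (14.3%, against 28.2% of all genes) and 2 higher calls (28.6%, against 26.3%) among 7 tested, with a median log2 fold change of 0.01. KIF24, a centriolar depolymerase that restrains cilium assembly, had 1002, 853 and 781 normalized counts in WT against 1385, 1429 and 1507 in NUAK2-CR. The groups did not overlap and KIF24 rose by 0.71 (SE 0.10, adjusted p = 5.68e-05), with 144 transcript bases that overlap UBAP1 on the opposite strand. KIF6, a motor of motile cilia, rose by 0.98 (SE 0.23, adjusted p = 0.00351) at low levels, from 65.1 ± 14.3 to 127 ± 15.0 (SD, n = 3). KIF26B, which takes part in WNT5A and ROR signalling and cell adhesion, had 461, 354 and 279 normalized counts in WT against 170.2, 204 and 212 in NUAK2-CR. These did not overlap, although WT varied widely, and KIF26B fell by 0.91 (SE 0.18, adjusted p = 0.00117) amid neighbours with a median of -0.38.

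KIF7, the ciliary tip regulator of hedgehog signalling, had 2219, 1629 and 1601 normalized counts in WT against 1882, 1889.8 and 1730.2 in NUAK2-CR. The NUAK2-CR libraries lay within the WT range, and the log2 fold change was 0.01 (SE 0.11, adjusted p = 0.946), but 0.19 without WT replicate 1 (adjusted p = 0.0366); 398 of its transcript bases overlap TICRR on the opposite strand. KIF9, KIF27 and KIF12, of motile cilia and of kidney and liver, had log2 fold changes of 0.23, -0.07 and -0.15 and adjusted p of 0.326, 0.836 and 0.885.

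**Figure D4:**
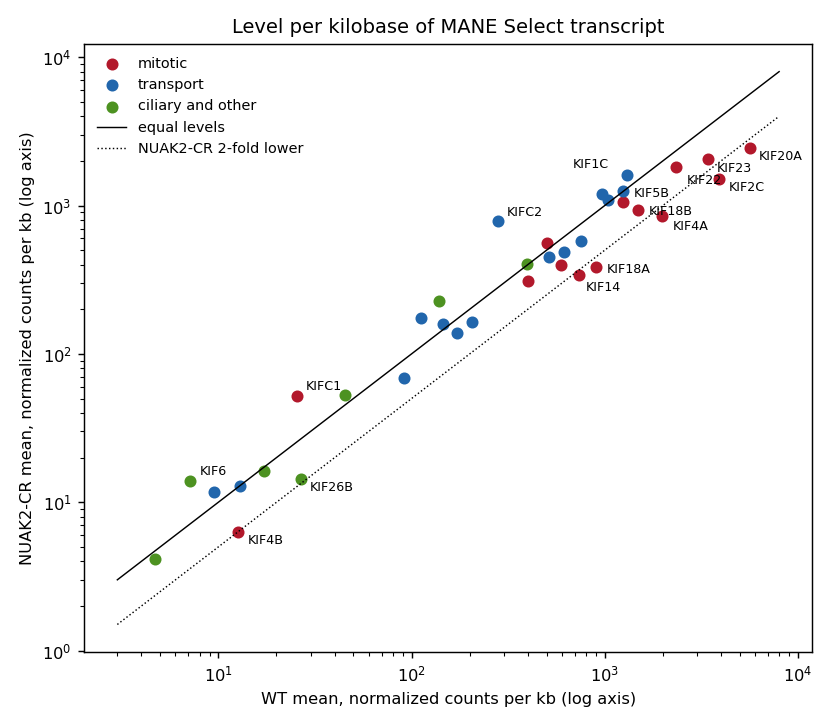
Mean normalized counts per kilobase of the MANE Select transcript in WT (horizontal) and NUAK2-CR (vertical), both on log axes, for 36 tested kinesins coloured by class; the solid line marks equal levels and the dotted line a level 2-fold lower in NUAK2-CR. KIF20A is highest in both groups, at 5650.1 and 2456, and KIF2C, KIF18A, KIF4A, KIF20A and KIF14 lie beyond the dotted line.

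Levels of different genes were compared per kilobase of the MANE Select transcript. In WT the order began with KIF20A at 5650.1 normalized counts per kb, KIF2C at 3919, KIF23 at 3430.1, KIF22 at 2341, KIF4A at 1985 and KIF18B at 1493, all mitotic, followed by the transport kinesin KIF1C at 1306. In NUAK2-CR it began with KIF20A at 2456, KIF23 at 2062, KIF22 at 1808, KIF1C at 1614, KIF2C at 1522 and KIF5B at 1246. KIF2C thus moved from rank 2 to rank 5 of the 42, KIF4A from 5 to 11, KIF18A from 12 to 19 and KIF14 from 14 to 20, and KIF1C from 7 to 4. KIF5B stood at 1244 and KIF11 at 1245 in WT, which do not differ beyond their spread.

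The partners of the mitotic kinesins at the spindle and the adaptors of the transport kinesins gave different counts. These lists were chosen with earlier results of these data known, so their shares describe the lists only. Of 28 tested spindle partners, 26 fell (92.9%, against 28.2% of all genes), 1 rose (3.57%, against 26.3%) and the median log2 fold change was -0.75. PRC1, which bundles midzone microtubules and binds KIF4A, fell by 0.76 (adjusted p = 1.22e-06), RACGAP1, the partner of KIF23, by 0.58 (adjusted p = 9.19e-06) and TPX2, which loads KIF11 and KIF15 onto the spindle, by 0.40 (adjusted p = 0.000282). CENPE, the kinetochore kinesin outside the symbol rule, fell from 5496 ± 718 to 3739.9 ± 435 (SD, n = 3), with a log2 fold change of -0.56 (adjusted p = 0.000594). The lowest values were those of HMMR (-1.55), a spindle pole protein, the mitotic kinase PLK1 (-1.27) and SPAG5 (-1.27), and the 1 gene that rose was NUMA1 (0.44), which tethers spindle poles.

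**Figure D5:**
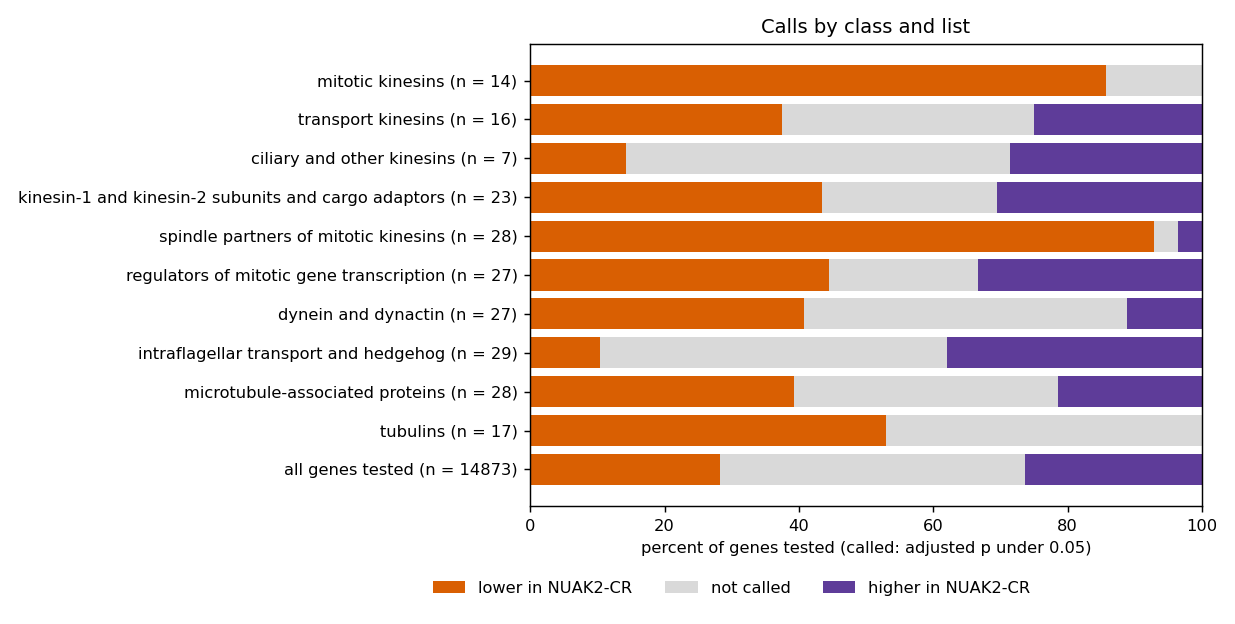
Percent of the tested genes of each class or list (rows, with the number tested) that were called lower in NUAK2-CR, not called, or called higher, at an adjusted p under 0.05. Lower calls make up 85.7% of mitotic kinesins and 92.9% of their spindle partners, against 28.2% of all genes in the bottom row. The lists were chosen with earlier results of these data known.

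The list of regulators of mitotic gene transcription also held genes that are not regulators, such as CCNB1, CCNB2 and PCNA. It was divided, with 12 lower calls (44.4%, against 28.2% of all genes) and 9 higher calls (33.3%, against 26.3%) among 27 tested. Its median log2 fold change was 0.02, and the regulators alone were not counted apart. FOXM1, the activator that binds with MuvB late in the cycle, fell by 0.36 (adjusted p = 0.000853), and LIN9, a MuvB subunit, fell by 0.82. CCNB1 and CCNB2, the mitotic cyclins, fell by 1.51 and 1.00. MYBL2 rose by 0.29 (adjusted p = 0.0138) and E2F8 by 0.92. E2F1 and PCNA, which belong to the entry into DNA replication, rose by 0.93 and 0.90. MKI67, the proliferation antigen, had a log2 fold change of -0.36 (adjusted p = 0.0158), with overlapping libraries at 38989 ± 5388 and 30342 ± 4072 normalized counts (SD, n = 3). The nearest tested genes had medians of -0.31 around MKI67, -0.4 around LIN9 and 0.09 around FOXM1. Less its regional median, the value of MKI67 was -0.05.

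Among 23 kinesin-1 and kinesin-2 subunits and cargo adaptors, 10 fell (43.5%, against 28.2% of all genes), 7 rose (30.4%, against 26.3%) and the median log2 fold change was -0.09. The light chain KLC1 was not called (log2 fold change 0.06, adjusted p = 0.512). KIFBP, which holds several kinesins off the microtubule, fell by 0.33 (adjusted p = 0.00352), RHOT1, the mitochondrial anchor of kinesin-1, by 0.74, and MADD, an adaptor of KIF1 motors, by 0.62. SYBU, which links syntaxin vesicles to kinesin-1, rose from 147 ± 10.7 to 412 ± 28.3 (SD, n = 3), with a log2 fold change of 1.48 (adjusted p = 1.89e-06), and the scaffold genes MAPK8IP3 and MAPK8IP2 rose by 0.63 and 0.59. Of 29 intraflagellar transport and hedgehog genes, 3 fell (10.3%, against 28.2% of all genes), 11 rose (37.9%, against 26.3%) and the median was 0.22. In all 48.3% were called, below the 54.5% of all genes. IFT88 fell by 0.41, IFT74 by 0.31 and the receptor CDON by 1.29, and BOC, GAS1 and GLI2 rose by 2.10, 1.77 and 0.97. The tested genes nearest to IFT88 had a median of -0.49, and less this median the value of IFT88 turned to 0.09.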

How the data were processed

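Bulk RNA-seq of 3 WT and 3 NUAK2-CR U251 libraries was analysed. The authors' submitted notes and methods name bcl2fastq, Trimmomatic, HISAT2 (hg38) and featureCounts with default parameters, which for featureCounts means that strand is ignored; the gene annotation is not given in the sources used here. The deposited values are raw counts per gene, without normalization, from stranded poly(A) libraries; 27745 of 28395 gene identifiers matched a symbol. Members and lists were chosen with earlier results of these data known. Counts were tested in R 4.3.3 with edgeR 4.0.16 (filterByExpr, TMM, glmQLFit, quasi-likelihood F test, prior count 0.125) over 14873 genes, with Benjamini-Hochberg adjustment; common biological coefficient of variation 0.101. The SEs printed were derived from this test, as the absolute log2 fold change divided by the square root of the F statistic. The study's own test was DESeq2, which was run as an alternative (DESeq2 1.42.0). The pipeline was tested on simulated data. Regional medians cover the 100 nearest tested genes on the chromosome, in GENCODE v44 coordinates (GRCh38), and lengths are those of MANE Select transcripts. All 42 kinesins are accounted for; values per library are given for those called with at least a 2-fold change, those at the floor in 1 group, and 14 set by name, and partners are named if set by name or among the 3 highest or lowest called of a list with at least 100 normalized counts. Alternatives were RLE and library-size scaling, 2 filters, each library left out, a replicate block, a prior count of 2, thinning to 29648445 counts, glmTreat at 0.5, KIF2A left out of the mitotic class, and subtraction of regional medians. Tables and plots were made in Python 3.11.15 (pandas 2.3.3, matplotlib 3.10.9).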

Additional observations from a re-analysis of the deposited data

How the results depend on the processing

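Over 37 kinesin genes and the 15 settings with a test, 552 single-gene values were compared: 499 kept their direction and side of the threshold, 24 lost the call, 10 gained it and 19 changed sign. Less the regional median, which has no test, 4 of 37 changed sign (KIF1B, KIF5B, KIF17 and KIF27), none of them called. With a library left out, 23 to 26 kinesins were called, 17 to 20 lower and 6 to 8 higher, with 10 to 12 mitotic calls, a mitotic median of -0.78 to -0.62, a transport median of -0.10 to 0.09 and a ciliary and other median of 0.01 to 0.38. The transport median was 0.01 with DESeq2, 0.03 with the replicate block and 0.02 less the regional median, and the ciliary and other median was 0.13 with DESeq2. Without a filter 2 kinesins passed the study's fold threshold (KIF26A beside KIF21B), and with at least 10 counts in every library 0 did, because KIF21B was then not tested. Tested with glmTreat against an absolute log2 fold change of 0.5, 2937 of 14873 genes were called. Among them were 11 of 37 kinesins (8 lower, 3 higher), with 6 of 14 mitotic, 2 of 16 transport and 3 of 7 ciliary and other kinesins. Of the lists, 19 of 28 spindle partners, 6 of 17 tubulins and 9 of 28 microtubule-associated proteins were called. The list of transcription regulators gave 8 of 27, and the subunits and adaptors 3 of 23. Dynein and dynactin gave 2 of 27, and intraflagellar transport and hedgehog genes 5 of 29. Signs changed for genes that were not called: KIF5B was -0.01 without a filter, -0.00 with at least 10 counts and -0.01 after thinning, and KIF17 was 0.05 with the block. With a library left out, KIF5B ran from -0.03 to 0.02, KIF17 from -0.28 to 0.42, KIF12 from -0.54 to 0.43, KIF16B from -0.02 to 0.69, KIF27 from -0.33 to 0.07, KIF7 from -0.07 to 0.19, KIFC1 from -0.35 to 1.44 and KIFC3 from -0.04 to 0.16. Libraries with the same replicate number correlated at 0.043, -0.035 and 0.048, so the numbers do not pair them; with that block 26 kinesins and 8167 genes were called. Apart from what is stated above, the cause was not tested. Genes under about 100 counts are limited by depth.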

Other observations

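Other microtubule genes were described by list only. Tubulins, the subunits of the track itself, gave 9 lower and 0 higher calls among 17 tested (52.9% and 0%, against 28.2% and 26.3% of all genes), with a median log2 fold change of -0.61; TUBA4A fell by 1.39, TUBA1C by 1.15, from 84021 ± 6277 to 37809.7 ± 768 normalized counts (SD, n = 3), and TUBB4B by 1.11. Many tubulin genes are close copies, so reads may match several of them and their levels are uncertain. Among 28 tested microtubule-associated proteins, 11 fell and 6 rose (39.3% and 21.4%, against 28.2% and 26.3% of all genes), with a median of -0.16. MAP1B, which stabilises microtubules in growing neurites, fell by 1.39, and MAPRE2 and MAP7, which bind plus ends and recruit kinesin-1 respectively, fell by 0.98 each. STMN3, a tubulin-binding stathmin of neurons, rose from 120.2 ± 12.1 to 1155 ± 134 (SD, n = 3), or by a log2 fold change of 3.27 (adjusted p = 1e-09, edgeR), and CLIP2 and DCLK2 rose by 0.75 and 0.30.

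Dynein and dynactin, the minus-end motor that works against most kinesins, gave 11 lower and 3 higher calls among 27 tested (40.7% and 11.1%, against 28.2% and 26.3% of all genes; 51.9% called, near the 54.5% of all genes), with a median log2 fold change of -0.04. DYNC1I1, an intermediate chain best known from neurons, fell from 1004 ± 104 to 329 ± 28.8 (SD, n = 3), or by a log2 fold change of -1.61 (adjusted p = 1.55e-07), and SPDL1, which brings dynein to kinetochores, and DYNLT3 fell by 0.77 and 0.52. DYNC1LI2, DYNC1H1 and HOOK3 rose by 0.43, 0.36 and 0.35, with overlapping libraries for DYNC1H1.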
